A study of Mus musculus with 16 samples.

Results

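Of the 24960 genes listed in the Iso-seq tables, of which 21627 had at least 1 read, 6 genes for regulators of G protein signaling in the striatum were followed: Rgs9, Rgs2, Rgs4, Rgs8, Rgs14 and Rgs7bp. They were chosen by name, as RGS proteins or partners known from striatal signaling, with earlier results of these data known. The samples were cortex and striatum of male, 3-month-old R6/2 mice (B6CBA-Tg(HDexon1)62Gpb/3J) and non-transgenic (NT) mice, as 4 groups of 4 samples. R6/2 mice carry a transgene with exon 1 of the human mutant HTT gene under the human HTT promoter, beside their own mouse Htt gene, so the mutant fragment is not restricted to 1 cell type. Iso-seq is a long-read method in which each read covers a cDNA copy of 1 transcript and is assigned to an isoform of a gene.

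RGS proteins speed the hydrolysis of GTP by the alpha subunits of heterotrimeric G proteins and so shorten the signal that a receptor sends. In the striatum they act on signals from dopamine, muscarinic, opioid, cannabinoid and metabotropic glutamate receptors. Rgs9 belongs to the R7 family, whose members work in a complex with the beta subunit Gnb5, and Rgs7bp anchors such complexes at the plasma membrane. Rgs2, Rgs4 and Rgs8 are small members of the R4 family. Rgs2 acts mainly on Gq and Rgs4 on both Gi/o and Gq. Rgs14 is a larger protein that also holds Ras-binding domains and a GoLoco motif.

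Total reads lay between 252885 and 808814 per cortical sample and between 317050 and 1496196 per striatal sample. For 4 of the 8 striatal samples, NT 1, NT 2, R6/2 2 and R6/2 3, 2 sets of counts were deposited, which were summed. These 4 samples stood apart from the other 4: the mean isoform length of their reads was 2142 to 2225 nt against 1620 to 1886 nt, and mitochondrial transcripts took 0.408% to 0.852% of gene reads against 1.42% to 3.28%. Each genotype had 2 samples of each kind, so the number of sets was a term in every fit that held striatal samples. Between samples with 2 sets and 1 set, 30.4% of the 7658 striatal genes tested differed. Of the 6 RGS genes, Rgs2 passed that test and was lower with 2 sets, by a log2 fold change of -0.86 ± 0.26 (SE, adjusted p = 0.026). Each group held 4 mice, and whether the cortex and striatum of a given number came from the same mouse is not given in the sources used here.

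In genomic order on mm10, Rgs2 lies at chr1:143999338-144004161, Rgs8 at chr1:153653025-153700323 and Rgs4 at chr1:169741477-169747642, with Rgs8 on the plus strand and the other two on the minus strand. Rgs9 lies at chr11:109225355-109298129 on the minus strand. Rgs14 lies at chr13:55369732-55384687 on the plus strand and Rgs7bp at chr13:104945904-105054930 on the minus strand. Summed over the 16 samples, 2773 reads were counted for Rgs9 and 2897 for Rgs7bp. Rgs4 had 1531 reads, Rgs14 had 419, Rgs8 had 322 and Rgs2 had 225. The last 3 genes therefore rest on few reads per sample, in the cortex on 2 to 12 for Rgs2 and on 2 to 9 for Rgs8.

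The reads of most of these genes were complete. A read of a known isoform, or of an unannotated combination of splice sites (NIC) or an unannotated splice site (NNC), was counted as complete, and an incomplete splice match (ISM) covers only part of an annotated isoform. ISM reads were 3.85% of Rgs4 reads, 10.3% of Rgs7bp reads, 12.4% of Rgs14 reads, 13.9% of Rgs9 reads and 16.9% of Rgs2 reads. Rgs8 differed from these genes, with 49.1% ISM reads. Reads of the genomic class, which were left out of gene counts, would have added 143 reads to the 322 of Rgs8, and 60.0% of all its reads, genomic ones included, covered a single exon. Of the 322 counted reads of Rgs8, 164 were complete and 158 were ISM, and 136 of the latter were of a single-exon ISM isoform (TALONT000651031). The ISM share was compared between R6/2 and NT mice in each region by a two-sided exact permutation test, and 0 of 12 tests passed after adjustment. Before adjustment 1 of 12 was under 0.05: in cortical NT samples 5.85% ± 3.59 of Rgs4 reads were ISM, and in cortical R6/2 samples 1.56% ± 1.22 (SD, n = 4 each, exact permutation p = 0.029, the smallest possible; adjusted p = 0.33). In the striatum the smallest possible p was 0.056. With these smallest values none of the 12 tests could have passed after adjustment, whatever the shares were. The count of 0 of 12 therefore says nothing about the ISM share.

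**Figure D1:**
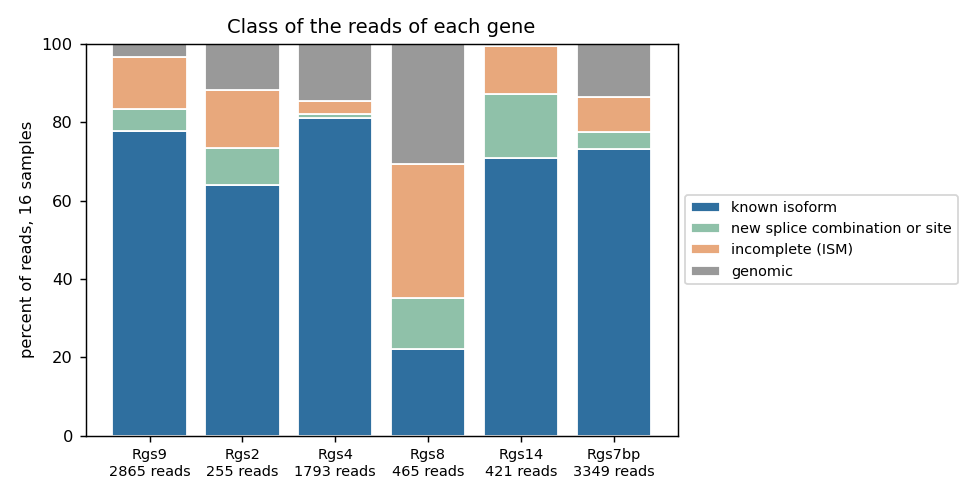
Percent of the reads of each gene (y axis) by class, summed over the 16 samples, with the number of reads, genomic ones included, under each bar. Known isoforms make up most reads of Rgs9, Rgs2, Rgs4, Rgs14 and Rgs7bp, while ISM and genomic reads together make up more than the complete reads of Rgs8.

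The first comparison asked how the regions of NT mice differ. Rgs9 was the gene with the widest gap: it had 19.7, 27.0, 15.3 and 40.4 counts per 1e06 reads (CPM, normalized over the 16 samples) in the 4 cortical NT samples and 753, 932, 622 and 691 CPM in the 4 striatal NT samples. All striatal values lay far above all cortical ones. Rgs9 was higher in the striatum by 4.48 ± 0.27 (log2, SE), or 22.3-fold (adjusted p = 5.2e-11). Rgs8 had 11.3, 8.99, 30.5 and 18.2 CPM in cortical and 69.7, 60.0, 55.8 and 66.0 CPM in striatal NT samples, again without overlap. It was higher in the striatum by 1.67 ± 0.37 (3.17-fold, adjusted p = 0.0013). The size depended on the read classes counted: it was 3.19 from complete reads only and 2.09 with genomic reads added. Of the counted Rgs8 reads, 5 of 23 were complete in NT cortex and 100 of 174 in NT striatum. Rgs2 had 22.6, 27.0, 10.2 and 12.1 CPM in cortical and 34.2, 32.4, 54.2 and 86.3 CPM in striatal NT samples. It was higher in the striatum by 1.64 ± 0.35 (3.12-fold, adjusted p = 8.0e-04).

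Rgs7bp, the membrane anchor of R7 complexes, had 293, 319, 137 and 278 CPM in cortical and 456, 533, 476 and 645 CPM in striatal NT samples, with no overlap. It was higher in the striatum by 1.11 ± 0.22 (2.15-fold, adjusted p = 4.4e-04). Rgs4 did not pass the test: it had 116, 258, 91.5 and 262 CPM in cortical and 373, 247, 228 and 193 CPM in striatal NT samples, and the groups overlapped. Its log2 difference was 0.01, with a 95% interval of -0.67 to 0.69. Without the term for the number of sets it was 0.50 (adjusted p = 0.39). Rgs14 had 93.1, 44.9, 81.3 and 68.6 CPM in cortical and 84.1, 50.3, 67.3 and 25.4 CPM in striatal NT samples. Its log2 difference was -0.42, with a 95% interval of -1.08 to 0.25, and neither gene was shown to be equal in both regions. In all, 4 of the 6 genes were higher in the striatum of NT mice and none was lower, while 15.8% of the 7390 genes tested were higher. The median log2 difference of all tested genes was -0.11. The share of all genes without overlap between the regions is not given here, so the lack of overlap is a description only. The same 4 genes passed under all 25 alternatives of processing and sample choice.

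**Figure D2:**
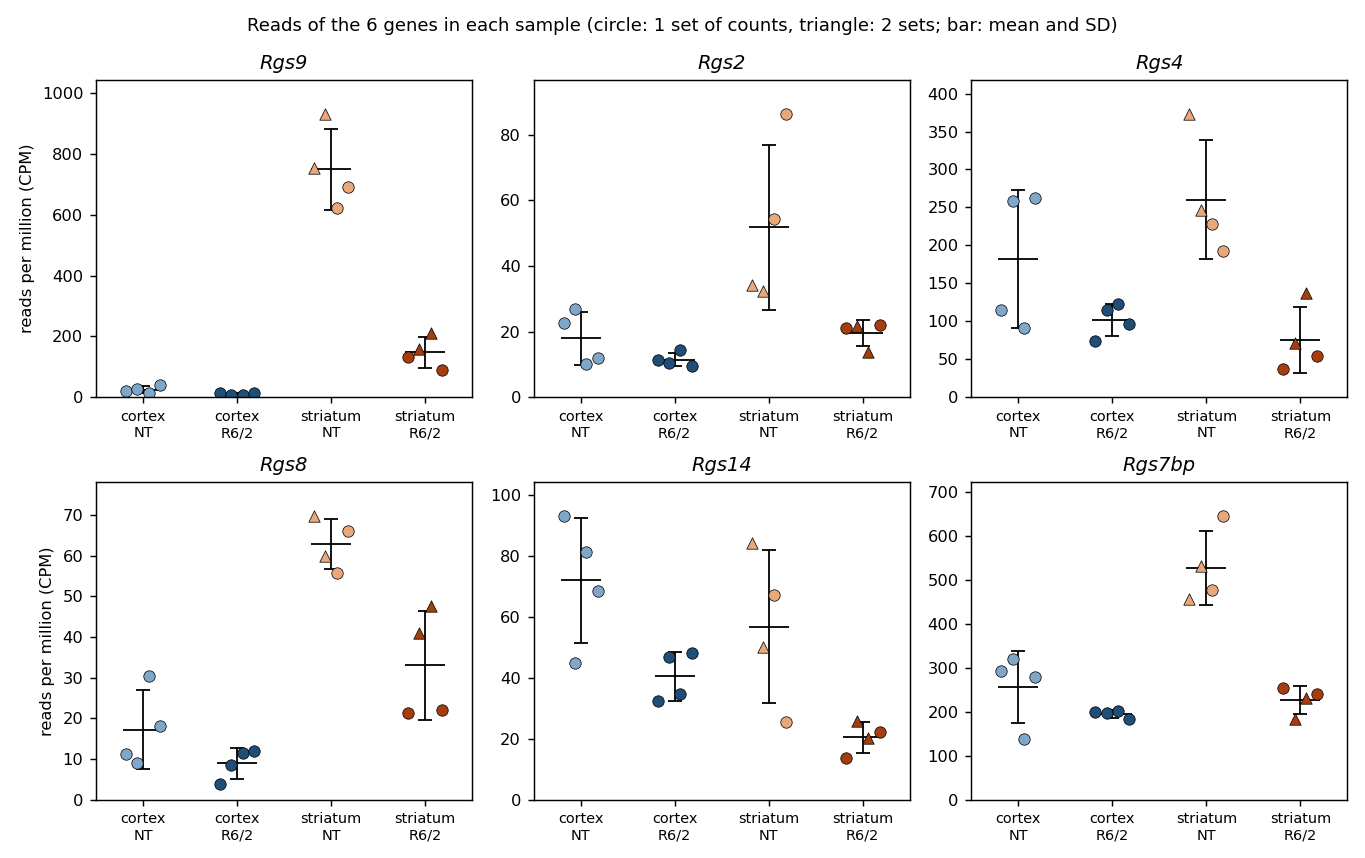
CPM (y axis, linear) of each gene in each of the 16 samples by region and genotype (x axis). Points are samples, triangles those with 2 sets of counts and circles those with 1, and the bars give the mean and SD of 4 samples. In the striatum, all R6/2 samples lie below all NT samples for each gene but Rgs14.

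In the striatum of R6/2 mice all 6 genes fell. The background was low: 3.84% of the 7658 genes tested were lower in R6/2 striatum (294 genes) and 38 genes were higher. The median log2 fold change of the 6 genes was -1.40, against 0.00 over all genes tested. For 5 of the 6 genes every R6/2 sample lay below every NT sample, which held for 4.28% of the genes tested. In bulk tissue, fewer cells of a type and less RNA per cell cannot be told apart.

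Rgs9, whose long form is known as a regulator of dopamine and opioid signaling in striatal projection neurons, fell the most of the 6. Its levels were 753, 932, 622 and 691 CPM in striatal NT samples and 134, 160, 211 and 88.5 CPM in striatal R6/2 samples. The highest R6/2 sample lay far below the lowest NT sample. The fold change was -2.37 ± 0.19 (log2, SE), or 5.16-fold lower (95% interval -2.78 to -1.95, adjusted p = 2.4e-05). Rgs7bp fell as well. It had 456, 533, 476 and 645 CPM in striatal NT samples and 254, 183, 231 and 241 CPM in striatal R6/2 samples, with no overlap. Its fold change was -1.23 ± 0.17 (2.34-fold lower, adjusted p = 0.0011).

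Among the small R4 genes, Rgs4 changed by the largest factor. It had 373, 247, 228 and 193 CPM in striatal NT samples and 38.0, 71.3, 138 and 54.1 CPM in striatal R6/2 samples. The groups did not overlap, and the R6/2 samples spread over a wider range than the NT samples relative to their mean. The fold change was -1.85 ± 0.24 (3.59-fold lower, adjusted p = 9.4e-04). Rgs2 had 34.2, 32.4, 54.2 and 86.3 CPM in striatal NT samples and 21.3, 21.6, 13.8 and 22.1 CPM in striatal R6/2 samples. The groups did not overlap, and the 2 NT samples with 2 sets were the lowest of their group. Its fold change was -1.22 ± 0.26 (2.33-fold lower, adjusted p = 0.019). Rgs8 had 69.7, 60.0, 55.8 and 66.0 CPM in striatal NT samples and 21.3, 41.1, 47.7 and 22.1 CPM in striatal R6/2 samples, without overlap. Its fold change, -0.87 ± 0.23 (1.83-fold lower, adjusted p = 0.045), was the smallest and stood close to the threshold.

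Rgs14 had 84.1, 50.3, 67.3 and 25.4 CPM in striatal NT samples and 13.7, 25.9, 20.1 and 22.1 CPM in striatal R6/2 samples. NT sample 4, with 5 reads, fell within the range of the R6/2 samples, so the groups overlapped. The fold change was -1.57 ± 0.29 (2.97-fold lower, adjusted p = 0.0085).

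The size of these differences hardly depended on the term for the number of sets, but the calls did. Without the term, the fold changes lay between -2.36 for Rgs9 and -0.91 for Rgs8, and 1 of the 6 genes passed: Rgs9 (adjusted p = 0.0071). The adjusted p-values of the other 5 were then 0.070 for Rgs4, 0.073 for Rgs7bp, 0.092 for Rgs14, 0.22 for Rgs8 and 0.23 for Rgs2, and 39 genes passed in all. Within the 4 samples with 1 set the fold changes were -2.53 for Rgs9, -2.24 for Rgs4, -1.63 for Rgs14, -1.58 for Rgs2, -1.45 for Rgs8 and -1.16 for Rgs7bp, and Rgs9 and Rgs4 passed. Within the 4 samples with 2 sets they were -2.21 for Rgs9, -1.58 for Rgs4, -1.53 for Rgs14, -1.28 for Rgs7bp, -0.93 for Rgs2 and -0.56 for Rgs8, and Rgs9 passed. Every fold change was thus negative in both kinds of sample. Rgs2 no longer passed without R6/2 1 (adjusted p = 0.077), R6/2 3 (0.069) or R6/2 4 (0.066). Rgs8 passed in 4 of 19 alternatives, and lost its call without any 1 of 7 of the 8 samples, with adjusted p-values of 0.058 to 0.14.

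**Figure D3:**
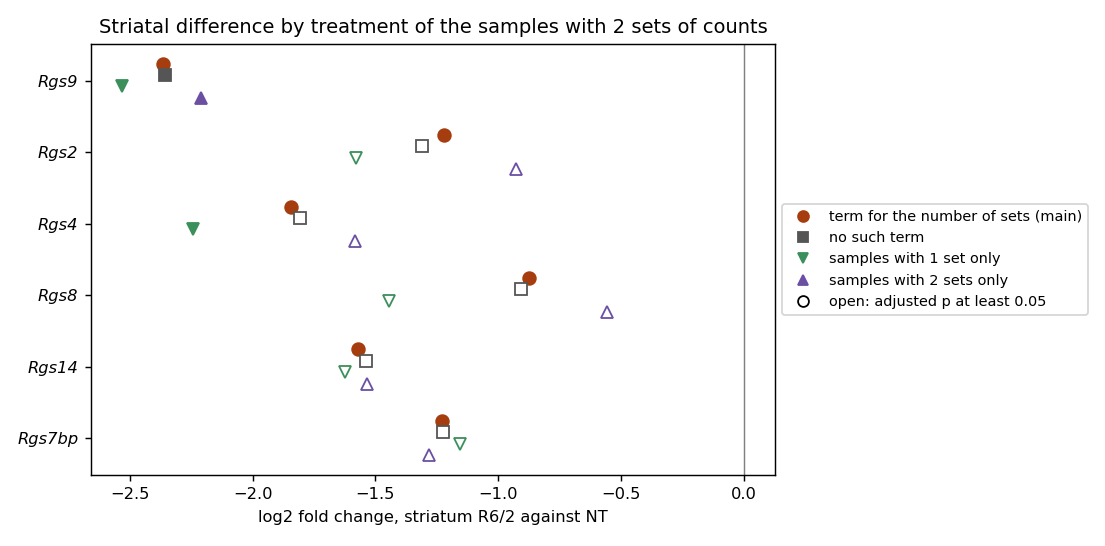
Log2 fold change of R6/2 against NT striatum (x axis) for each gene (y axis) with and without the term for the number of sets of counts, and within samples of each kind. Filled symbols have an adjusted p under 0.05. All symbols lie left of 0, and Rgs9 passed in all 4 fits.

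In the cortex no call was made for these genes. Only 3 of them, Rgs4, Rgs14 and Rgs7bp, passed the filter on low counts, and 0 of 3 were called by edgeR or by DESeq2, against 2.81% of the 6121 genes tested that were lower (172 genes). Before adjustment, 2 of 3 had a p under 0.05. Rgs4 had 116, 258, 91.5 and 262 CPM in NT and 74.5, 115, 123 and 96.2 CPM in R6/2 cortex, and 2 NT samples lay within the R6/2 range. Its log2 fold change was -0.89 (95% interval -1.45 to -0.32, adjusted p = 0.086). Rgs4 passed without NT 1 (adjusted p = 0.018) or without NT 3 (0.022), with genomic reads added (0.026) and without the filter (0.0085). Rgs14 had 93.1, 44.9, 81.3 and 68.6 CPM in NT and 32.5, 46.7, 34.7 and 48.1 CPM in R6/2 cortex. Its log2 fold change was -0.80 (95% interval -1.34 to -0.26, adjusted p = 0.11).

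Rgs7bp had 293, 319, 137 and 278 CPM in NT and 201, 197, 201 and 183 CPM in R6/2 cortex. The R6/2 samples lay close together, and NT sample 3, with 27 reads, was below them all. The log2 fold change was -0.42 (95% interval -0.85 to 0.02, adjusted p = 0.32), and -0.60 without NT 3 (adjusted p = 0.043). The other 3 genes were read only in a fit without the filter. Rgs9 had 15.3, 6.37, 8.66 and 14.4 CPM in R6/2 cortex, against 15.3 to 40.4 CPM in NT cortex. Rgs2 had 11.5, 10.6, 14.4 and 9.62 CPM and Rgs8 had 3.82, 8.49, 11.6 and 12 CPM in R6/2 cortex, and both overlapped with NT samples. In that fit Rgs9 had a log2 fold change of -1.26 ± 0.42 (adjusted p = 0.11) on 42 NT and 23 R6/2 reads, Rgs8 one of -0.72 ± 0.50 and Rgs2 one of -0.60 ± 0.45 (adjusted p = 0.66 for both). The fit without the filter pooled the spread over genes almost fully (114354 degrees of freedom, against 20.3 with the filter). Its SEs and p-values therefore hardly reflect how a single gene varied between mice. This also holds for the Rgs4 call made without the filter. In the cortex, none of the 6 genes had all R6/2 samples below all NT samples. Of the 6121 genes tested, which leave out Rgs9, Rgs2 and Rgs8, 6.47% did. With so few genes, a count of 0 lies near that share and is not read as a result.

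**Figure D4:**
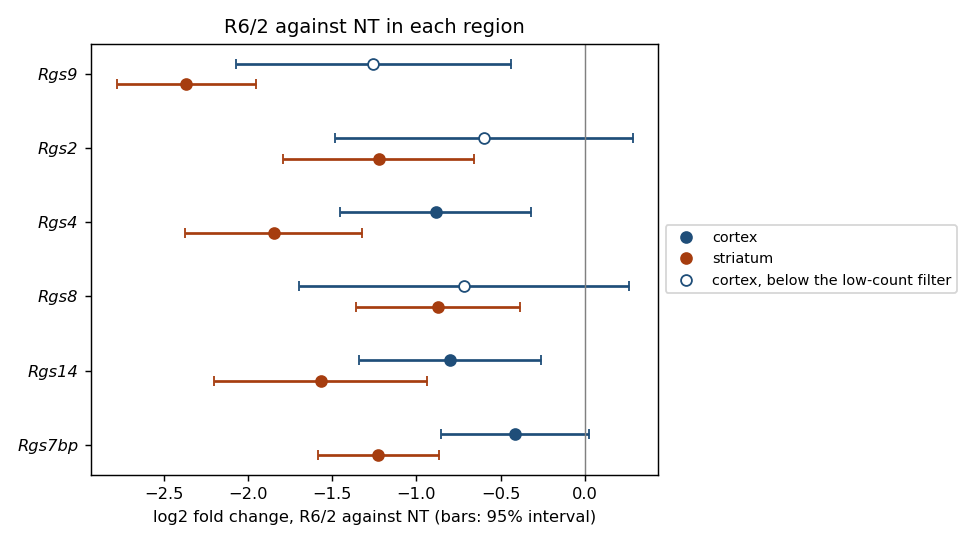
Log2 fold change of R6/2 against NT (x axis, bars 95% interval) for each gene (y axis) in cortex and striatum, 4 samples per group. Open symbols come from the cortical fit without a filter, whose intervals hardly reflect how a single gene varied between mice. All point estimates are negative, and no cortical one passed the test.

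Whether the R6/2 difference was larger in the striatum was tested as an interaction over all 16 samples. The estimates were -1.04 ± 0.44 for Rgs9, -0.94 ± 0.41 for Rgs4, -0.79 ± 0.28 for Rgs7bp, -0.74 ± 0.40 for Rgs14, -0.56 ± 0.48 for Rgs2 and -0.08 ± 0.60 for Rgs8 (log2, SE), where a negative value is a larger decrease in the striatum. None passed in edgeR or DESeq2, with adjusted p-values of 0.79 and more in edgeR, and 0.0406% of the 7390 genes passed in all, or 3 genes. Before adjustment 3 of the 6 genes, Rgs9, Rgs4 and Rgs7bp, had a p under 0.05. The share of all genes at that level is not given here, so this count is not read as a result. A larger effect in the striatum than in the cortex was therefore not shown for any of these genes.

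The order of the regions in R6/2 mice held for some genes and not for others. Rgs9 was still higher in the striatum, by 3.44 ± 0.31 (10.9-fold, adjusted p = 1.0e-07), as was Rgs8, by 1.59 ± 0.40 (3.01-fold, adjusted p = 0.0046). The Rgs8 call was lost with the sample number as a block (log2 difference 1.31, adjusted p = 0.059) and with 1-set striatal samples only (1.24, adjusted p = 0.071). Rgs2 was higher by 1.08 ± 0.38 (adjusted p = 0.034), a call that was lost in 10 of 25 alternatives. Of these, 6 were the omission of striatal NT 2, NT 4, R6/2 2 or R6/2 4 or of cortical R6/2 1 or R6/2 4 (adjusted p up to 0.076). The Rgs2 call was also lost from complete reads only, without the term for sets, with the first set only and with 1-set striatal samples only. Over all 25 alternatives the Rgs2 difference went down to 0.71 and its adjusted p up to 0.27. Rgs14 was lower in the striatum of R6/2 mice, by -1.16 ± 0.36 (adjusted p = 0.018). That call was lost without striatal R6/2 1 (adjusted p = 0.091), without cortical R6/2 2 (0.11), without the term for sets (0.068) and without the filter on low counts (0.0503). Rgs4 was at -0.93 ± 0.35 (adjusted p = 0.053), and its call changed with the sample left out: it passed without any 1 of striatal NT 2, NT 3 or R6/2 3 or cortical NT 3, NT 4 or R6/2 1, with adjusted p-values from 0.016 to 0.048, as well as without the filter (0.040) and with 1-set striatal samples only (0.029). Rgs4 passed in 8 of 25 alternatives. Over all 25 its log2 difference lay between -1.18 and -0.41, with adjusted p-values from 0.016 to 0.56. Rgs7bp was at 0.32 ± 0.22 (95% interval -0.14 to 0.77, adjusted p = 0.30). In R6/2 mice 12.9% of the 7390 genes were higher and 14.3% lower in the striatum.

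The isoforms of each gene were mostly 1 annotated form. Rgs4 was read almost only as its 5-exon form (ENSMUST00000027991), which took between 98.0% and 99.1% of complete reads on average in each group. Rgs7bp was read mainly as its 6-exon form (ENSMUST00000063551), at 92.6% ± 2.30 in NT and 92.3% ± 2.32 in R6/2 striatum (SD, n = 4). Rgs14 was read as its 15-exon form (ENSMUST00000063771), at 80.4% ± 4.57 in NT and 79.7% ± 18.2 in R6/2 striatum. An unannotated NIC form of Rgs14 with 16 exons (TALONT000325680) took 6.38% ± 2.73 of complete reads in NT cortex, from 6 of 92 reads, and 1 of 72 reads in R6/2 cortex. NT cortex was the only group where it held 5% of complete reads, so it was named through that group. The lower share in R6/2 cortex is therefore not read as a result. A second NIC form of 15 exons (TALONT000325733) reached 5.98% ± 5.17 in R6/2 striatum, from 3 of 51 reads, and was named through that group. It also had 3 of 152 reads in NT striatum, 1 of 92 in NT cortex and 2 of 72 in R6/2 cortex.

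Rgs9 has 2 known protein forms, and the data hold both. The long form, known from striatum, has a C-terminal domain that the short form, known from photoreceptors, lacks. The long form (ENSMUST00000020920, 19 exons, 675 residues) took 91.3% ± 0.707 of complete Rgs9 reads in NT striatum and 88.5% ± 4.19 in R6/2 striatum. The short form (ENSMUST00000106706, 17 exons, 484 residues) was rare. Both share the first 1398 coding bases, up to chr11:109235900. There the long form is spliced to its next exon, which begins at chr11:109227604, and its last 627 coding bases follow. The short form reads on into what is intron for the long form, and ends after 54 more coding bases. The sequences around this point are shown because the 2 proteins part here. What decides between the forms was not tested. The 30 shared bases are in lower case and the bases that follow are in capitals, 60 of the long form and all 54 of the short form, read on the minus strand from GENCODE M21.

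long form: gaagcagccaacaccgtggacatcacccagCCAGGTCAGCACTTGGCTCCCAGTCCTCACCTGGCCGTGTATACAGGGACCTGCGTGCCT
short form: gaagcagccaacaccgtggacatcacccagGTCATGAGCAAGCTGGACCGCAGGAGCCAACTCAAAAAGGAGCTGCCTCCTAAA

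In NT striatum the short form had 1 of 518, 10 of 1021, 3 of 297 and 1 of 82 complete Rgs9 reads in the 4 samples. In R6/2 striatum it had 3 of 69, 3 of 136, 6 of 187 and 1 of 29. The share was 0.851% ± 0.451 in NT and 3.30% ± 0.880 in R6/2 striatum (SD, n = 4), and the samples did not overlap, but these are 15 reads against 13. How many isoforms of other genes lacked overlap is not given here. The usage of this form relative to the gene was higher in R6/2 striatum by 1.38 on the log2 scale (diffSpliceDGE, adjusted p = 0.25). For the gene as a whole the adjusted p was 0.58, so no change of Rgs9 isoform usage was called. In the cortex, with 31 NT and 18 R6/2 complete reads, the short form had 2 reads in each genotype.

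**Figure D5:**
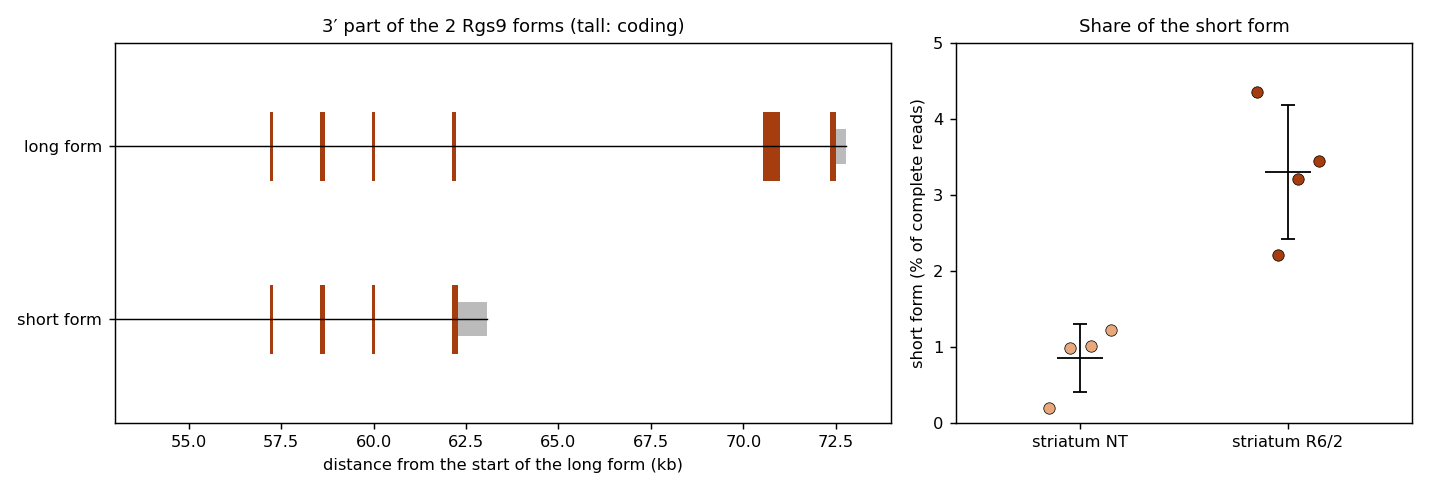
Left, exons of the 3′ part of both Rgs9 forms by distance in kb from the start of the long form, with coding parts drawn tall and untranslated parts low. Right, percent of complete Rgs9 reads that were of the short form in each striatal sample (points) with mean and SD of 4 samples, 0.851% in NT and 3.30% in R6/2 mice. These shares rest on 15 and 13 reads of the short form, and no change of usage was called.

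For Rgs2 the main form (ENSMUST00000127206, 5 exons) took 66.9% ± 6.51 of complete reads in NT and 81.9% ± 15.1 in R6/2 striatum. An NNC form with 5 exons (TALONT000637370), which holds an unannotated splice site, had 5 of 20, 6 of 37, 6 of 26 and 1 of 12 reads in NT striatum and 0 of 11, 1 of 17, 1 of 12 and 0 of 7 in R6/2 striatum. Its mean share was 18.2% ± 7.56 in NT and 3.55% ± 4.22 in R6/2 mice, and 1 sample of each group had an equal share. NT striatum was the only group where this NNC form held 5% of complete reads, so it was named through that group. Its lower share in R6/2 striatum is therefore not read as a result. A 4-exon form of Rgs2 (ENSMUST00000153527) took 8.02% ± 6.12 in NT and 14.5% ± 13.6 in R6/2 striatum. The usage test of Rgs2 gave an adjusted p of 0.79.

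Rgs8 was the gene with the most even spread over forms. In NT striatum, a 7-exon form of 3625 nt (ENSMUST00000111812) had 28.1% ± 5.70 of its complete reads and a 7-exon form of 820 nt (ENSMUST00000152114) had 26.2% ± 4.24. Both start at the downstream promoter, at chr1:153665312 and chr1:153665274. The form that starts upstream, at chr1:153653025 (ENSMUST00000041776), had 6.95% ± 5.43. In R6/2 striatum these shares were 15.8% ± 5.22, 10.7% ± 7.35 and 16% ± 2.44, on 54 complete reads. The usage test of Rgs8 gave an adjusted p of 1. A 6-exon form (ENSMUST00000111810) and an NNC form (TALONT000650880) had 4 and 3 reads in NT striatum and 2 and 2 in R6/2 striatum. Of the 6 genes, 4 could be tested for isoform usage in the striatum, since Rgs4 and Rgs14 had a single form with at least 10 reads. None of the 4 was called by the Simes test or by the gene-level F test, where 0.451% of 4437 genes were called by Simes, and 1 of 4, Rgs9, had a p under 0.05 before adjustment. Of all 4437 genes, 299 had a Simes p under 0.05 before adjustment. In the cortex none could be tested, where 0.360% of 3058 genes were called. Between regions of NT mice 0 of 4 were called by either test, 1 of 4 (Rgs7bp) had a p under 0.05 before adjustment, and 0.372% of 5641 genes were called. Of these 5641 genes, 335 had a Simes p under 0.05 before adjustment.

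Other genes of the same signaling system were read from lists. Of 16 other RGS genes, 7 could be tested in the striatum: Rgs10 fell by 0.88 (adjusted p = 0.018), Rgs12 fell by 1.02 (adjusted p = 0.045) and Rgs19 rose by 1.46 (adjusted p = 0.0058) on the log2 scale. Rgs10 acts on Gi/o subunits, Rgs12 is, like Rgs14, a larger protein of the R12 family, and Rgs19 belongs to the RZ family. Rgs19 had 20.9 ± 7.46 CPM in NT and 54.9 ± 2.66 CPM in R6/2 striatum. Gnb5, the obligate partner of R7 proteins such as Rgs9, fell by 0.98 on the log2 scale (SE 0.18, adjusted p = 0.0068), from 792 ± 156 to 407 ± 76.9 CPM. It was the only one of the 2 tested partners to pass. The Rgs12 call was lost in 14 of 16 alternatives, among them DESeq2 and the omission of any 1 striatal sample but NT 4. The Rgs10 call was lost in 8 of 19, among them the omission of R6/2 2, R6/2 3 or R6/2 4, the Rgs19 call in 4 of 19 and the Gnb5 call in 3 of 19. Within samples of 1 set or of 2 sets, 0 of the other RGS genes were called, with 3 and 4 at an unadjusted p under 0.05. Of 12 G protein alpha subunits 9 were tested and 0 were called by edgeR or by DESeq2, with 2 and 0 at an unadjusted p under 0.05. Without the filter on low counts edgeR called 1 of 12. Gnal, the alpha subunit that couples dopamine and adenosine receptors to adenylyl cyclase in the striatum, had 246 ± 39.0 CPM in NT and 189 ± 68.2 CPM in R6/2 striatum (log2 fold change -0.40, adjusted p = 0.27). Of 24 receptors that couple to Gi/o or Gq, 11 were tested and 3 fell: Drd2, the D2 dopamine receptor, by 2.22 (adjusted p = 0.0015), Cnr1, the CB1 cannabinoid receptor, by 2.25 (adjusted p = 0.010), and Grm5, a metabotropic glutamate receptor, by 0.91 (adjusted p = 0.027). The Cnr1 call was lost in 4 of 18 alternatives, 1 of them the omission of R6/2 2, and the Grm5 call in 9 of 18, among them the omission of NT 2, R6/2 1, R6/2 2 or R6/2 4. The medians over the tested genes were -0.29 for other RGS genes, -0.87 for the partners, 0.05 for the alpha subunits and -0.52 for the receptors. Without the term for sets 0 genes of these 4 lists passed, although 4, 1, 0 and 6 had an unadjusted p under 0.05. In the cortex 0 of 6, 0 of 1, 0 of 9 and 0 of 7 tested genes of these lists were called by edgeR or DESeq2, with 2, 1, 2 and 2 at an unadjusted p under 0.05 in edgeR.

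Marker genes of projection neurons moved in the same comparison. All 10 markers of striatal projection neurons were read in every group, none of them at 0, and their summed level was 9972 to 13594 CPM in NT striatum and 1944 to 3341 CPM in R6/2 striatum. Of these 10 genes, 5 fell and none rose, while 3.84% of all genes tested were lower. Among the 5 were Penk, Pde10a, Ppp1r1b (DARPP-32) and Adora2a, with log2 fold changes of -3.04, -2.18, -2.16 and -1.55. The number that fell was 3 without the term for sets, 5 with 1-set and 3 with 2-set samples only. It was 6 in DESeq2 and 7 without the filter. The Adora2a call was lost without the term and with 2-set samples only. The 4 interneuron markers summed to 133 to 300 CPM in NT and 41.3 to 101 CPM in R6/2 striatum, with Chat, a marker of cholinergic cells, lower. Oligodendrocyte markers (13287 to 31244 against 13359 to 19934 CPM, 1 of 6 lower), astrocyte markers (417 to 1111 against 482 to 825 CPM), microglial markers (299 to 430 against 307 to 492 CPM) and markers of endothelial and mural cells (163 to 239 against 131 to 220 CPM) overlapped between genotypes. Markers of the choroid plexus summed to 55.2 to 9626 CPM in NT and 95.7 to 322 CPM in R6/2 striatum, with Kl at 0 in the latter, and those of cortical excitatory neurons to 5.08 to 51.3 and 21.2 to 51.6 CPM. In NT cortex the projection neuron markers summed to 381 to 492 CPM, and in R6/2 cortex to 112 to 149 CPM, and 2 of the 3 tested there, Ppp1r1b and Penk, fell. Interneuron markers summed to 158 to 296 CPM in NT and 89.1 to 106 CPM in R6/2 cortex, and 1 of 3 tested, Vip, fell, with a log2 fold change of -1.60. Astrocyte markers summed to 869 to 1225 CPM in NT and 628 to 752 CPM in R6/2 cortex, without overlap, and 0 of 6 were called by edgeR or DESeq2, with 5 at an unadjusted p under 0.05 in each. The sums of the other 5 marker lists overlapped between genotypes in the cortex. The part of these cell types in the differences of the RGS genes was not tested in either region.

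Which genes had the pattern most like each of the 6 over the 16 samples was described by the root mean square difference of centred log2 CPM, among 8684 genes with a mean of at least 10 CPM. Closest to Rgs9 were Ppp1r1b (0.611) and Gpr6 (0.629), whose mean levels were 3874 and 121 CPM in NT and 879 and 34.7 CPM in R6/2 striatum. Closest to Rgs2 were Ctxn1 (0.317) and Shisa9 (0.321), to Rgs4 Sept5 (0.428) and Chn1 (0.432), to Rgs8 Phyhip (0.361) and Dclk3 (0.386), to Rgs14 Cdh22 (0.372) and Tmem44 (0.378), and to Rgs7bp Ppp1ca (0.295) and Rbfox1 (0.316). Among the 6 themselves, Rgs2 and Rgs7bp had the most similar patterns (0.362), and Rgs9 and Rgs14 the least similar (2.46). All these values share the same 16 libraries.

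The 250 bases before the start are shown for 5 of the 6 genes, those that matched by symbol in the RefSeq promoter table (GRCm38.p6, the assembly of mm10). Rgs8 has 3 such windows, of which the one before its downstream start is shown, and Rgs14 had none. Capitals mark matches, on either strand, of 4 motifs. These are CCAAT (bound by NF-Y), the core TGACG of a cAMP response element, the TATA box TATAAA, and the Sp1 motif, which reads GGGCGG.

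Rgs9, chr11:109298182-109298431, minus strand: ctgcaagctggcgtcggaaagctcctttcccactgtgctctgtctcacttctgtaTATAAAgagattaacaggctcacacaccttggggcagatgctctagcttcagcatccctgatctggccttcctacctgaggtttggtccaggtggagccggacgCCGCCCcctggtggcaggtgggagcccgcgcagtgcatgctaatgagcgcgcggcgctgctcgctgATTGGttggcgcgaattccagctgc
Rgs4, chr1:169747643-169747892, minus strand: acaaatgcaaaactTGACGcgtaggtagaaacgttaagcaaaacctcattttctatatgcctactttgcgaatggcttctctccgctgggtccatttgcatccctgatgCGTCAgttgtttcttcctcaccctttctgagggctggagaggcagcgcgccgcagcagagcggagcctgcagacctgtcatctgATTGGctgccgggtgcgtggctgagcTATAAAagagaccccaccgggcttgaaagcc
Rgs2, chr1:144004150-144004399, minus strand: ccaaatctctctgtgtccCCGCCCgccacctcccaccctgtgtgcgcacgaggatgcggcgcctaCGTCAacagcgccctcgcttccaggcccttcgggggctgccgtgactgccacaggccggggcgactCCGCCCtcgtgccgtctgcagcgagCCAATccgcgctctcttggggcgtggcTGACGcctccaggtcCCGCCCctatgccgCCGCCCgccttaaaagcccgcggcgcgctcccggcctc
Rgs8, chr1:153665024-153665273, plus strand: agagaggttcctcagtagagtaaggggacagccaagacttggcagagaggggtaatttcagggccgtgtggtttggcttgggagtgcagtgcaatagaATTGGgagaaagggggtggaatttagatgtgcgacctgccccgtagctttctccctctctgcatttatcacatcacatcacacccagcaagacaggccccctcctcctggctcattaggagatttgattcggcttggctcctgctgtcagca
Rgs7bp, chr13:105054931-105055180, minus strand: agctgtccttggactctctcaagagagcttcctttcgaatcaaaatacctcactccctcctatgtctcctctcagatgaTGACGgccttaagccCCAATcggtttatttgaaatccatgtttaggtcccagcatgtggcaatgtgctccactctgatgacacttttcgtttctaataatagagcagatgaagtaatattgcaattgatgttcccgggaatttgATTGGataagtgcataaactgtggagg

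CCAAT or its complement stood at position -25 before Rgs9, -57 before Rgs4, -94 before Rgs2, -152 before the downstream start of Rgs8 and -156 and -27 before Rgs7bp, counted from the first transcribed base to the first base of the match. Of the other 2 windows of Rgs8, the one before the upstream start held no CCAAT and 1 TGACG, at -46, and the one before a start further downstream held CCAAT at -100. Of the 32851 promoter windows in the table, 33.8% held it. In the windows shown, TGACG stood in 2 places before Rgs2 and before Rgs4 and in 1 before Rgs7bp, and 17.8% of all windows held it. TATAAA stood at -31 before Rgs4 and at -195 before Rgs9, against 12.4% of all windows. GGGCGG matched in 4 places before Rgs2 and in 1 before Rgs9, against 32.7% of all windows. No match overlapped one of another motif. These are matches of letters only, and their part in the levels of these genes was not tested.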

How the data were processed

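Iso-seq tables of isoform abundance were deposited for 16 samples, 4 per region and genotype, with 2 tables for each of 4 striatal samples. Values are raw read counts per isoform, deposited unfiltered and without normalization. Per the labels, poly(A) RNA treated with Terminator exonuclease was used, and reads were aligned with minimap2 (2.17-r941) to mm10. Per the study's methods, the authors corrected alignments with TranscriptClean and assigned reads to Ensembl isoforms with TALON.

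Rows were matched by gene symbol, and both tables of a sample were summed. Gene counts were known, incomplete splice match (ISM), NIC and NNC reads. The Genomic class was left out, as were reads of intergenic and antisense isoforms. Genotypes were compared within a region, and regions and the interaction over all 16 samples, by edgeR's quasi-likelihood test (edgeR 4.0.16, R 4.3.3) with TMM normalization, filterByExpr and Benjamini-Hochberg adjustment over all genes tested (threshold 0.05). A term for the number of sets of counts was included wherever striatal samples entered. Regional differences are thus those at 1 set, which all cortical samples had. Isoform usage was tested by diffSpliceDGE (Simes p per gene) on complete isoforms (ISM left out) that had 10 or more reads. The ISM share was compared by a two-sided exact permutation test over samples, within the number of sets in the striatum. CPM values come from 1 normalization over the 16 samples. How many of all genes had an unadjusted p under 0.05 is given for isoform usage only. Counts at that level in other tests therefore have no background and are not read as results. Alternatives were DESeq2 (1.42.0), upper-quartile normalization, other filters, read classes and handling of the sets, and leaving out each sample. The fits were tested on counts simulated with known changes. These were drawn without an effect of the number of sets, so that test does not cover the term for sets. Intervals of shares cover counting error only.

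The 6 genes, the gene lists and the marker lists were chosen with earlier results of these data known. Named list genes had an adjusted p under 0.05 between genotypes and a mean of 20 or more reads in the group with more, at most 6 per list and region, or were the gene shown where a list had none. Named isoforms held at least 5% of complete reads in any group. For each gene, the 2 most similar genes were named. One symbol that the tables hold as a date was read as Sept5 from its gene identifier. Of the marker genes, 2 are not reported by name here but stay in the summed levels and counts. Total reads per sample are given with the results.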

Additional observations from a re-analysis of the deposited data

Results flagged for a closer look

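Among 48 groups of 4 values, the CPM and the ISM share of each gene in each region and genotype, 4 held a sample that stood far from the other 3, where chance gives about 1 in 20 groups. Rgs2 had 13.8 CPM in striatal R6/2 sample 3, and the nearest other sample had 21.3 CPM. The ISM share of Rgs4 was 0% in striatal R6/2 sample 1, from 0 of 25 reads, which allows a share of up to 12% (3 reads), and the nearest other sample had 4.55%. The ISM share of Rgs7bp was 29.6% in cortical NT sample 3, from 8 of 27 reads (95% Wilson interval 15.9% to 48.5%), and the nearest other sample had 14.5%. It was 3.67% in striatal R6/2 sample 3, from 8 of 218 reads (95% Wilson interval 1.87% to 7.07%), against 10.1% in the nearest other sample.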

How the results depend on the processing

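All 6 genes had a negative striatal fold change in R6/2 mice in each of 19 alternatives, and passed the test in 19 (Rgs9), 17 (Rgs4), 16 (Rgs14), 16 (Rgs7bp), 12 (Rgs2) and 4 (Rgs8) of them. The number of these genes called was 1 without the term for sets, 2 with 1-set samples only, 1 with 2-set samples only and 4 to 6 with 1 sample left out. Over all genes, 332 were called in the striatum, 606 without the filter, 39 without the term, 181 with the first set only, 55 with 1-set and 34 with 2-set samples, and 143 to 391 with 1 sample left out. In the cortex 200 genes were called, 95 from complete reads only and 95 to 305 with 1 sample left out, and 0 of the 6 genes, but 1 without the filter, 1 with genomic reads added and 0 to 2 with 1 sample left out. Between regions, 2467 genes (NT) and 2014 (R6/2) were called, but 1101 and 840 without the term. Of the 6 genes 4 were called in R6/2 mice, 2 without the term and 3 to 5 with 1 sample left out. The interaction was called for 3 genes, 7 in DESeq2, 8 without the filter, 1 from complete reads, 1 without the term, 0 with 1-set samples and 1 to 3 with 1 sample left out. Isoform usage was called for 11 cortical genes (7 with known isoforms only, 28 by the F test, 1 to 15 with 1 sample left out), 20 striatal genes (7, 74 and 5 to 26, and 11 with ISM isoforms, 3 without the term and 8 with the first set) and 21 genes between regions of NT mice (144 with ISM isoforms, 52 by the F test, 12 to 37 with 1 sample left out). Estimates near 0 reversed when 1 sample was left out: Rgs4 between regions of NT mice, at -0.17 to 0.42, and the Rgs8 interaction, at -0.33 to 0.15. The cause was not tested.

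Equal sample numbers were not taken to pair the samples, since the labels do not say so and in none of 4 kinds of pair did all 4 correlations of deviations from the fit exceed 0.1. Cortex and striatum of R6/2 mice came closest, with 3 of 4 over 0.1 (-0.028 to 0.268, against at most 0.0917 for unequal numbers), which leaves a pairing of these regions possible. With the sample number as a replicate block, 185 striatal genes, 1 interaction and 6 genes in regional isoform usage were called, and 4 of the 6 genes in the striatum, where Rgs2 (adjusted p = 0.058) and Rgs8 (0.084) did not pass. The low read counts of Rgs2, Rgs8 and Rgs14 limit what can be detected for them, and in the cortex Rgs9, Rgs2 and Rgs8 could be read only without the filter.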
